A study of Mus musculus with 28 samples.

Results

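The liver breaks down surplus amino acids with enzymes that are made mostly in hepatocytes, and 9 of their genes were followed here in livers of mice that express human APOBEC3B (A3B), a cytosine deaminase. The 9 genes were listed by name, with no threshold on a measured value but with earlier results of these data known, out of 35858 gene symbols with estimated counts in one set of livers and 24849 gene rows in another. All 9 passed the filter on low values in both sets. RNA-seq was available for 28 samples of liver, pancreas and lung, and the 14 livers form 2 sets that were processed separately. Set 2 has 6 A3B livers and 2 control livers, and set 1 has 3 A3B livers and 3 control livers.

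A3B mice carried TetO-A3B-tGFP, the A3B coding sequence fused to a green fluorescent protein under a tetracycline-inducible promoter in the ColA1 locus, together with CAGs-rtTA3, a driver that is active in most tissues rather than in hepatocytes alone. The transgene was placed in KH2 embryonic stem cells, and mice were 4 weeks old when food with 625 ppm doxycycline (dox) began. A3B livers of set 2 had 10 days of dox, as did A3B liver 70 of set 1, and A3B livers 23 and 28 of set 1 had 14 days. Control livers 45 and 168 of set 2 carried the A3B transgene without the driver and are labelled with 10 days of dox, as the study's list of mice also gives, whereas its description of the editing analysis calls the control pair not on dox and its methods say that control littermates lacking either transgene were fed dox. Control livers 91 and 92 of set 1 are labelled in the same way with 15 days, and control liver 11 is labelled as carrying both transgenes for 15 days, whereas the study's list of mice gives all 3 as not on dox. What the controls of both sets received is therefore not certain. Values without control 11 are given beside the results they move. Replicates are different mice, named by their numbers.

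Amino acid breakdown in the liver runs as short chains. Tdo2 encodes tryptophan dioxygenase, the entry step of the kynurenine route, and Kmo encodes kynurenine monooxygenase further down the same route. Tat, Hpd, Hgd and Fah encode tyrosine aminotransferase, hydroxyphenylpyruvate dioxygenase, homogentisate dioxygenase and fumarylacetoacetase, which take tyrosine in that order to fumarate and acetoacetate. Hal and Uroc1 encode histidine ammonia-lyase and urocanate hydratase, the opening pair of steps of histidine breakdown. Sds encodes serine dehydratase, which turns serine into pyruvate for glucose synthesis. Tat, Tdo2 and Sds are textbook targets of glucocorticoids, and Tat and Sds also of glucagon acting through cyclic AMP.

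The human transgene was read in set 1, where its row is part of the table. Its level was 1705 TPM in A3B liver 23, 705 in liver 28 and 1585 in liver 70, and 0.145, 0.143 and 0.0929 in control livers 11, 91 and 92. TPM is a level per transcript length, scaled to the same total in every sample. Hepatocyte markers were high in every liver, with Alb, the albumin gene, at 19353 to 107806 TPM in set 2 and 986 to 2037 TPM in set 1. In set 1 the authors removed duplicate reads before counting, so levels are compared only within a set. The summed hepatocyte list (8 of its 9 genes in the tables) was 39710 to 85360 TPM in A3B livers of set 2 against 92340 and 149100 in controls 168 and 45. Alb alone made up 54669 and 107806 TPM of these control sums. In set 1 the list was at 7898 to 11140 TPM in A3B livers against 10700, 13570 and 14190 in controls 11, 91 and 92. The groups overlapped through control 11 only. In the fit over both sets described below, 2 of these 8 genes were called lower (Alb and Ttr), against 8.42% of all genes, and 6 of the 8 were below 0. In bulk tissue, fewer hepatocytes, less RNA per hepatocyte and a fall of some genes such as Alb cannot be told apart. Total estimated counts were 65161064 to 98780481 in A3B livers of set 2, and 118976013 and 104834346 in the controls. Ddx3y, a gene of the Y chromosome, was expressed in 3 of 6 A3B livers and 1 of 2 controls of set 2, and in 0 of 3 A3B livers and 1 of 3 controls of set 1.

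The promoters of Tat, Tdo2 and Hgd are printed because these are the 3 genes whose difference passed the test over both sets. Each runs from 250 bases before to 50 bases after the RefSeq start site, 5′ to 3′ on the strand of the gene. Capitals mark the letters TATAAA, those of a TATA box, or the reverse complement TTTATA, at any distance from the start site.
Tat, GRCm38.p6, chr8:109990186-109990485, plus strand: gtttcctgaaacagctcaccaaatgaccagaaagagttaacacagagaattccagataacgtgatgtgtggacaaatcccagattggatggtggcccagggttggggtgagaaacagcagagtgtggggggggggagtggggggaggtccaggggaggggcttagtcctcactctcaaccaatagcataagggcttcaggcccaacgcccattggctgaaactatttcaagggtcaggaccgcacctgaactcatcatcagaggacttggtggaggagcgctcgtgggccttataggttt
Tdo2, GRCm38.p6, chr3:81975679-81975978, minus strand: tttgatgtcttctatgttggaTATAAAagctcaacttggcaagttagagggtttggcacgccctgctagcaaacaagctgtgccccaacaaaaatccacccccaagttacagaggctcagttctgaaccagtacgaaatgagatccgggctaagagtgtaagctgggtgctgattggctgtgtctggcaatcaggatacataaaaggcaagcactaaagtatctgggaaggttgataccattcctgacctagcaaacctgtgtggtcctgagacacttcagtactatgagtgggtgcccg
Hgd, GRCm38.p6, chr16:37579903-37580202, plus strand: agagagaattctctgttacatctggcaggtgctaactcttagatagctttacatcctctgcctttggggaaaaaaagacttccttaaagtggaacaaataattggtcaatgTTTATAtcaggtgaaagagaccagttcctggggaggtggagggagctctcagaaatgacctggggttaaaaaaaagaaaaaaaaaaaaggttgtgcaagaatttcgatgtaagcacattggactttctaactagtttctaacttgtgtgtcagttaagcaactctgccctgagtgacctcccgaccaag
Of the 9 genes, 8 had a RefSeq promoter in the table used. TATAAA in either orientation is in the promoters of Tdo2, Hgd and Hal, against 13.6% of all 32851 promoters. In Hal the match starts 28 bases before the start site, in Hgd 139 bases before it and in Tdo2 229 bases before it. AGAACA, the half-site of the glucocorticoid receptor, is in the Kmo promoter only, and in 19.0% of all promoters. TGACG (cyclic AMP response element half-site, 20.8% of all promoters), GTTAAT (HNF1 half-site, 7.10%), TGTTTAC (FOXA, 3.65%) and TTGCGCAA (C/EBP, 0.183%) are in none of the 8 windows on either strand. Matches are letters in these windows and were not tested for binding. Sequence outside the windows was not searched, so a window without a match does not show that a gene lacks such a site.

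Over all 14 livers, the genes at the head of the tryptophan and tyrosine chains were higher in A3B livers and one gene in the middle of the tyrosine chain was lower. Tat rose 3.27-fold (log2 fold change 1.71, SE 0.52), Tdo2 rose 2.17-fold (1.12, SE 0.39), and Hgd fell by 1.37 on the log2 scale (SE 0.39). These come from a limma fit on log2(TPM + 1) with the set as a covariate, with Benjamini-Hochberg adjusted p of 0.0176, 0.034 and 0.0117. In this fit 30.6% of the 10148 genes tested were called higher and 8.42% lower, 39% in all, so 3 of 9 is a share close to that of all genes. The median log2 fold change of the 9 genes was -0.43, against 0.38 for all genes tested. With every sample centred on its median gene, the calls over all genes went from 3107 higher and 854 lower to 1409 higher and 1842 lower. Under that centring Hgd stayed called lower (adjusted p = 0.00473), and neither Tat (0.0696) nor Tdo2 (0.183) passed. With 1 liver left out Hgd was called each time, Tat was not called without control 168 (0.0974), and Tdo2 was not called without any 1 of A3B livers 23, 44 and 70 and controls 45, 91, 92 and 168 (0.0517 to 0.148).

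**Figure D1:**
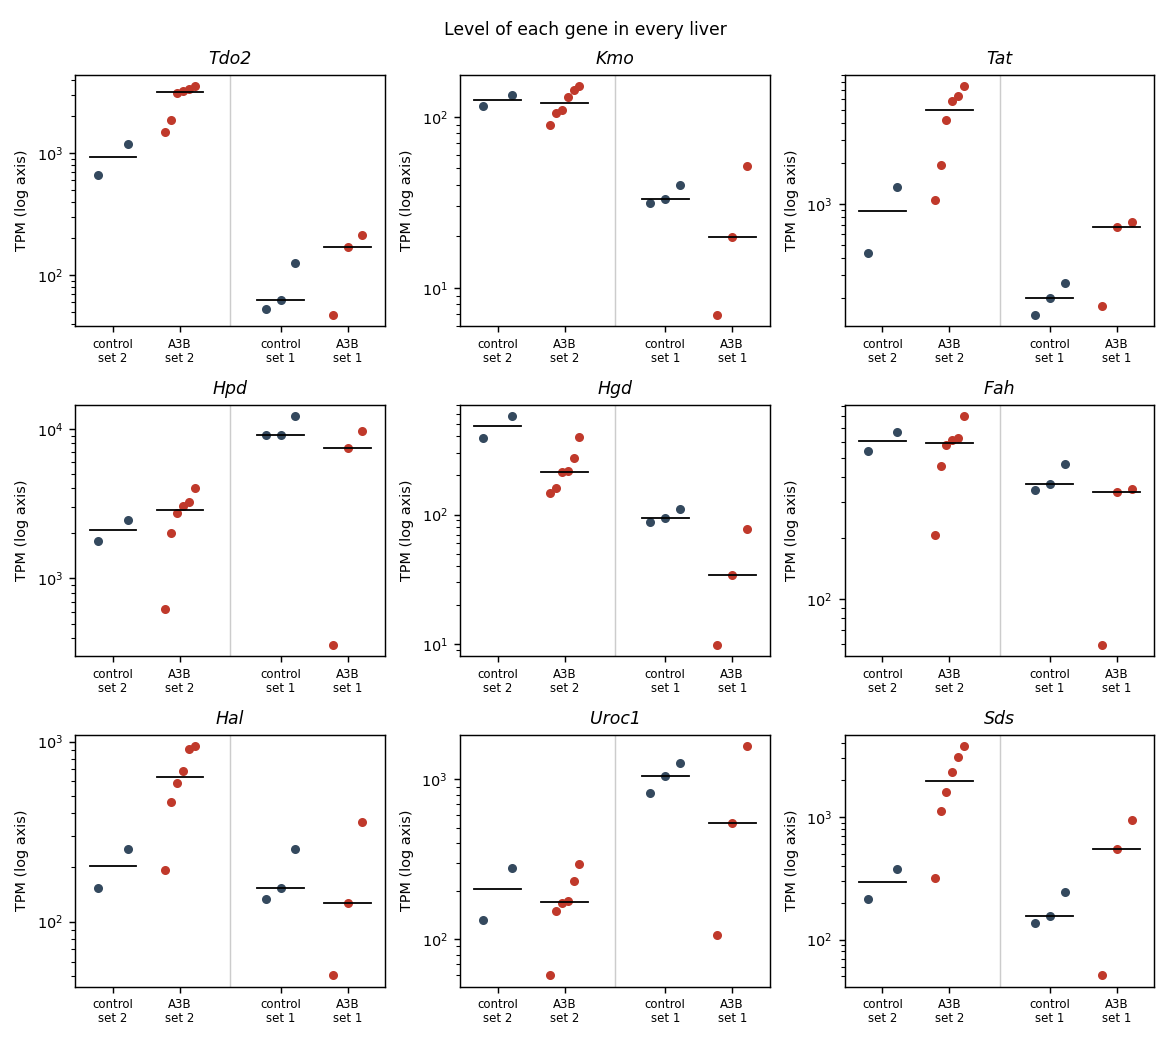
Level of each of the 9 genes (TPM, log axis) in every liver, as points sorted by value within a group, with the group median as a line and set 2 left of set 1. All 6 A3B points of Tdo2 lie above both controls in set 2, all 3 A3B points of Hgd lie below all controls in set 1, and the lowest A3B point in set 1 is liver 28 in each panel.

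Tdo2 (ENSMUSG00000028011.16, GRCm38 chr3:81957090-81976202, minus strand) was at 3094, 3541, 1857, 3354, 1481 and 3199 TPM in A3B livers 44, 137, 49, 125, 48 and 153. It was at 659 and 1190 TPM in control livers 45 and 168. In TPM no A3B liver of set 2 overlapped the controls, and Tdo2 was the only one of the 9 genes for which that held there, against 32.2% of all 12312 genes whose mean reached 1 TPM. The exact permutation test of log2(TPM + 1), two-sided, gave p = 0.0357, the smallest that 6 against 2 livers allow. In CPM, estimated counts scaled by library size and edgeR's TMM factors but not by length, the groups overlapped, since liver 48 was at 1293 and control 168 at 1648, with 1943 to 3732 in the other A3B livers and 850.8 in control 45. The overlap came with the TMM factors (1.03 in liver 48, 0.779 in control 168), since with counts scaled by library totals alone liver 48 was at 1330 and control 168 at 1284. In CPM only Hgd of the 9 genes was without overlap, against 27.9% of the 17365 genes tested. By totals alone Tdo2, Tat, Hgd and Sds were, 4 of 9, against 34.8%. With edgeR's quasi-likelihood test of the counts, the log2 fold change of Tdo2 was 1.07 (SE 0.54, adjusted p = 0.271), and 0.58 without control 45. In set 1 Tdo2 was at 170, 47.4 and 213 TPM in A3B livers 23, 28 and 70, and at 126, 62.8 and 53.2 TPM in controls 11, 91 and 92. Livers 23 and 70 were above all controls and liver 28 was below all of them (limma log2 fold change 0.67, SE 0.62, adjusted p = 0.471). It was 1.04 without control 11, 1.33 without liver 28 (adjusted p = 0.0901) and 0.26 without liver 70.

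Kmo (ENSMUSG00000039783.15, chr1:175620381-175662116, plus strand) showed no such separation. Its level was 130, 110, 89.98, 105, 145 and 152 TPM in A3B livers 44, 137, 49, 125, 48 and 153, and 135 and 117 TPM in controls 45 and 168. In TPM the controls lie in the middle of the A3B values. In CPM 5 of 6 A3B livers (155.5 to 269.5) were below both controls (287 and 295.8) and liver 48 (343.9) was above both. The log2 fold change was -0.37 (SE 0.35, edgeR adjusted p = 0.554), and -0.61 without liver 48 (adjusted p = 0.222). In set 1 Kmo was at 19.8, 6.96 and 51.4 TPM in A3B livers 23, 28 and 70 and at 40.0, 31.2 and 33.3 TPM in the controls. A3B livers thus lie on both sides of the controls (-0.79, SE 0.63, limma adjusted p = 0.404). Without liver 28 this log2 fold change was -0.11, and without liver 70 it was -1.47.

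Tat (ENSMUSG00000001670.13, chr8:109990437-109999803, plus strand) had the widest range of the tyrosine chain in set 2. It was at 5770, 7498, 1077, 6299, 1937 and 4177 TPM in A3B livers 44, 137, 49, 125, 48 and 153, and at 1341 and 435 TPM in controls 45 and 168. All livers but 49, that is 5 of 6, were above both controls. The log2 fold change was 1.99 (SE 0.80, edgeR adjusted p = 0.177), and the exact permutation p was 0.0714. This log2 fold change was 2.68 without control 45 and 1.42 without control 168. In set 1 Tat was at 737, 177 and 682 TPM in A3B livers 23, 28 and 70, against 201, 152 and 259 TPM in controls 11, 91 and 92. Livers 23 and 70 lay above all controls, and without liver 28 the limma log2 fold change went from 1.16 (SE 0.57, adjusted p = 0.202) to 1.83 (adjusted p = 0.0269).

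Hpd (ENSMUSG00000029445.13, chr5:123171807-123182727, minus strand), the step after Tat, did not follow it. It was at 2730, 3047, 624, 3235, 2017 and 4030 TPM in A3B livers 44, 137, 49, 125, 48 and 153, and at 2463 and 1773 TPM in the controls of set 2. Of these, 4 A3B livers were above both controls and liver 49 was below both, whereas in CPM 3 were above both and 3 below. The log2 fold change was -0.10 (SE 0.62, edgeR adjusted p = 0.944), and it turned positive when counts were scaled by their totals alone (0.29) or without liver 49 (0.04). In set 1 Hpd had the highest level of the 9 genes in every liver, 7462, 360 and 9698 TPM in A3B livers 23, 28 and 70 and 9088, 9101 and 12146 TPM in controls 11, 91 and 92. The log2 fold change there was -1.76 (SE 1.15, limma adjusted p = 0.316) over all 6 livers and -0.24 (adjusted p = 0.575) without liver 28.

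Hgd (ENSMUSG00000022821.13, chr16:37580153-37632020, plus strand) was called lower over both sets in every fit that left out 1 liver. In set 2 it was at 211, 217, 147, 161, 273 and 394 TPM in A3B livers 44, 137, 49, 125, 48 and 153, against 573 and 386 TPM in controls 45 and 168. Of the A3B livers 5 were below both controls, and liver 153 lay just above control 168. In CPM all 6 A3B livers (152.7 to 421.3) were below both controls (591.4 and 741.4). The log2 fold change was -1.49 (SE 0.40, edgeR adjusted p = 0.0665, unadjusted p = 0.00372). In set 1 it was at 33.9, 9.88 and 77.9 TPM in A3B livers 23, 28 and 70, and at 93.8, 87.9 and 110 TPM in controls 11, 91 and 92. All 3 A3B livers were below all 3 controls, which gives the smallest exact permutation p this design allows, 0.1, two-sided. Hgd was the only one of the 9 genes without overlap in set 1, against 38.9% of the 11507 genes tested there (-1.65, SE 0.66, limma adjusted p = 0.135). The size of that fall rested on single livers, with -0.90 without liver 28 (adjusted p = 0.177) and -2.33 without liver 70 (0.043). In TPM no gene of the 9 was on the same side without overlap in both sets, which 21.8% of 10148 genes were.

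Fah (ENSMUSG00000030630.16, chr7:84585159-84606722, minus strand), the last enzyme of the tyrosine chain and the gene mutated in hereditary tyrosinaemia, did not separate the groups in either set. Its levels were 610, 577, 208, 627, 453 and 803 TPM in A3B livers 44, 137, 49, 125, 48 and 153, and 672 and 540 TPM in the controls of set 2. In TPM 3 A3B livers lie between the controls, but in CPM 5 of 6 (201.8 to 670.4) were below both controls (774.7 and 810.2), with liver 153 between them (log2 fold change -0.51, SE 0.46, edgeR adjusted p = 0.545). In set 1 Fah was at 340, 59.1 and 351 TPM in A3B livers 23, 28 and 70 and at 346, 372 and 463 TPM in the controls (-1.02, SE 0.67, limma adjusted p = 0.32), and the log2 fold change was -0.18 without liver 28.

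Hal (ENSMUSG00000020017.14, chr10:93488768-93519304, plus strand) was at 690, 585, 195, 940, 460 and 908 TPM in A3B livers 44, 137, 49, 125, 48 and 153, and at 252 and 154 TPM in the controls of set 2. Again 5 A3B livers were above both controls and liver 49 was not, and in CPM 4 were above both (log2 fold change 1.07, SE 0.65, edgeR adjusted p = 0.354). This log2 fold change was 1.34 without control 45 and 0.70 without control 168. In set 1 the order was different, with 127, 50.5 and 358 TPM in A3B livers 23, 28 and 70 and 254, 133 and 154 TPM in controls 11, 91 and 92. A3B livers lay on both sides of the controls (-0.39, SE 0.68, limma adjusted p = 0.709). The log2 fold change was -0.12 without control 11, 0.30 without liver 28 and -1.11 without liver 70. The difference of the A3B effect between the sets was 1.89 on the log2 scale for Hal (SE 0.92, limma interaction, unadjusted p = 0.059, adjusted p = 0.9998). No gene of the 9 had an adjusted p under 0.05 for that difference, nor an unadjusted one, and limma called none of the 10148 genes, with 234 at an unadjusted p under 0.05.

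Uroc1 (ENSMUSG00000034456.15, chr6:90333284-90364551, plus strand), the step after Hal, was at 231, 150, 59.5, 169, 173 and 297 TPM in A3B livers 44, 137, 49, 125, 48 and 153 and at 278 and 132 TPM in the controls of set 2. In TPM 4 of the A3B values lie between the controls, whereas in CPM 4 were below both and the other A3B values between them. The log2 fold change was -0.51 (SE 0.52, edgeR adjusted p = 0.589), with -0.13 without control 45 and -0.95 without control 168. In set 1 it was at 535, 106 and 1611 TPM in A3B livers 23, 28 and 70 and at 1274, 828 and 1058 TPM in the controls, again on both sides (-1.20, SE 0.88, limma adjusted p = 0.367). It was -0.16 without liver 28 and -2.12 without liver 70.

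Sds (ENSMUSG00000029597.14, chr5:120476526-120483932, plus strand) had the largest fitted rise of the 9 genes in set 2. It was at 2324, 3072, 316, 1606, 1107 and 3762 TPM in A3B livers 44, 137, 49, 125, 48 and 153, against 377 and 216 TPM in controls 45 and 168. All but liver 49 were above both controls (log2 fold change 2.51, SE 0.86, edgeR adjusted p = 0.126, unadjusted p = 0.0151). In set 1 Sds was at 552, 51.3 and 945 TPM in A3B livers 23, 28 and 70, and at 136, 156 and 246 TPM in controls 11, 91 and 92. Livers 23 and 70 were above all controls and liver 28 below all of them. The limma log2 fold change was 0.79 (SE 0.99, adjusted p = 0.598), 2.05 without liver 28 (adjusted p = 0.0324) and -0.04 without liver 70. Over both sets it was 1.62 (SE 0.70, adjusted p = 0.0777), and it passed without liver 28 (adjusted p = 0.00391) or without liver 49 (0.0336). Sds has a close relative, Sdsl, and sharing of reads between the pair was not tested.

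**Figure D2:**
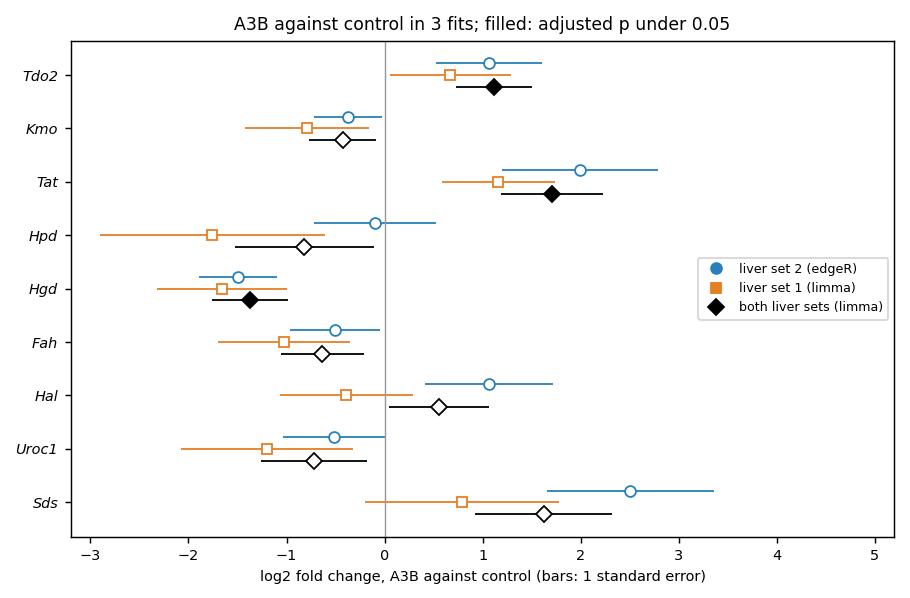
Log2 fold change of each gene, A3B against control, with 1 standard error, in livers of set 2 (edgeR on counts), of set 1 (limma on log2 TPM) and of both sets (limma). Filled symbols mark an adjusted p under 0.05, which only Tdo2, Tat and Hgd reach, each over both sets.

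Within set 2 alone edgeR called 0 of the 9 genes at an adjusted p under 0.05, where 3.66% of all 17365 genes were called. At an unadjusted p under 0.05 it found 3 of them, Hgd, Sds and Tat, and 22.9% of all genes. DESeq2 called the same 3 genes (adjusted p = 0.00817, 0.0113 and 0.0382). It called 2351 genes in all, 9.61% of the 24460 with any count. That base also holds genes below edgeR's filter on low counts, so this share is not comparable with that of edgeR. In limma on log2(TPM + 1) of the same livers 0 were called, with 5 at an unadjusted p under 0.05, where 26.6% of all genes were. Over all genes edgeR called 218 higher and 418 lower, but 879 higher and 241 lower when counts were scaled by their totals alone, which moved the median of all genes from 0.21 to 0.68. Within set 1 limma called 0 of the 9 (1 at an unadjusted p under 0.05, against 32.6% of all genes), where 7.93% of all 11507 genes were called, 699 higher and 214 lower, or 271 higher and 458 lower after centring on the median gene. Without control 11 it also called 0 of the 9, where 13.6% of all genes were called, and over both sets the same 3 genes were called without it (adjusted p = 0.0162 for Tdo2, 0.0242 for Tat and 0.0215 for Hgd).

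In each set 1 A3B liver stood apart. Liver 28 had the lowest level among the A3B livers of set 1 for 9 of 9 genes, and liver 49 had the lowest among those of set 2 for 8 of 9. Liver 70 had the highest for 8 of 9 and liver 153 for 6 of 9. Liver 28 had the lowest transgene level of the A3B livers of set 1, and its time on dox, 14 days, was shared with liver 23. Liver 49 had the fewest estimated counts of set 2 (65161064) and the shortest fragments, with a mean of 156 bases against 169 to 194 in the other livers of that set. Marker lists moved with these livers. Liver 49 had the lowest hepatocyte sum of set 2 (39710 TPM) and liver 28 of set 1 (7898), and the same held for the pericentral sum (901 and 645). Their neutrophil sums (120 and 117 TPM) and proliferation sums (55.2 and 16.8) were the highest of their sets, where the other livers had proliferation sums of 0.787 to 9.07 in set 2 and 1.08 to 9.56 in set 1. The part of these differences in the levels was not tested. Without liver 49 edgeR called Sds higher (adjusted p = 0.0209) and Hgd lower (0.0409) in set 2, where 9.38% of all genes were called. Without liver 153 it called Hgd (0.035), where 2.92% were. In set 1 limma called Tat and Sds without liver 28, where 7.73% of all genes were called, and Hgd without liver 70, where 11.6% were.

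The ratio of 2 genes in the same liver does not depend on how samples are scaled to each other. These ratios were looked at after the levels had been seen. Tat over Hpd, its next step, was 2.11, 2.46, 1.73, 1.95, 0.960 and 1.04 in A3B livers 44, 137, 49, 125, 48 and 153, and 0.544 and 0.245 in controls 45 and 168. In set 1 it was 0.0988, 0.492 and 0.0703 in A3B livers 23, 28 and 70, and 0.0222, 0.0167 and 0.0214 in controls 11, 91 and 92. Every A3B liver was above every control of its set, livers 28 and 49 included, and the ratio of the medians was 4.65 in set 2 and 4.63 in set 1.

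Hal over Uroc1 was 2.66 to 5.57 in A3B livers of set 2 with a median of 3.16, against 0.907 and 1.17 in the controls. In set 1 it was 0.237, 0.477 and 0.222 in A3B livers and 0.199, 0.161 and 0.145 in controls 11, 91 and 92, again with no overlap. Hgd over Fah went the other way, with 0.257 to 0.710 in A3B livers and 0.853 and 0.715 in controls of set 2, a narrow gap between liver 49 and control 168, and 0.0997, 0.167 and 0.222 in A3B livers and 0.271, 0.236 and 0.237 in controls of set 1. Tdo2 over Kmo was 10.2 to 32.3 in A3B livers of set 2, median 22.4, against 4.88 and 10.2 in the controls, and 4.15 to 8.55 against 1.60 to 3.16 in set 1. In set 2 the separation of Tdo2 over Kmo is narrow too, since liver 48 had 10.24 and control 168 had 10.20, and it was lost with estimated counts in place of TPM. Hpd over Hgd overlapped in both sets, with A3B livers on both sides of the controls.

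Of the 5 pairs that are neighbours among the 9 genes in a pathway, 4 were on the same side without overlap in both sets, 3 of them also with estimated counts for set 2. Of all 36 pairs of the 9 genes, 18 were, and 17 with estimated counts. Among all 51485878 pairs of genes whose mean reached 1 TPM in both sets the share was 20.1%. The 36 pairs share genes and livers and are not independent, and no test was made. Tat over Hgd had the widest gap of the pairs shown, with 7.08 to 39.1 in A3B livers against 1.13 and 2.34 in controls of set 2, and 8.74 to 21.8 against 1.72 to 2.36 in set 1.

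**Figure D3:**
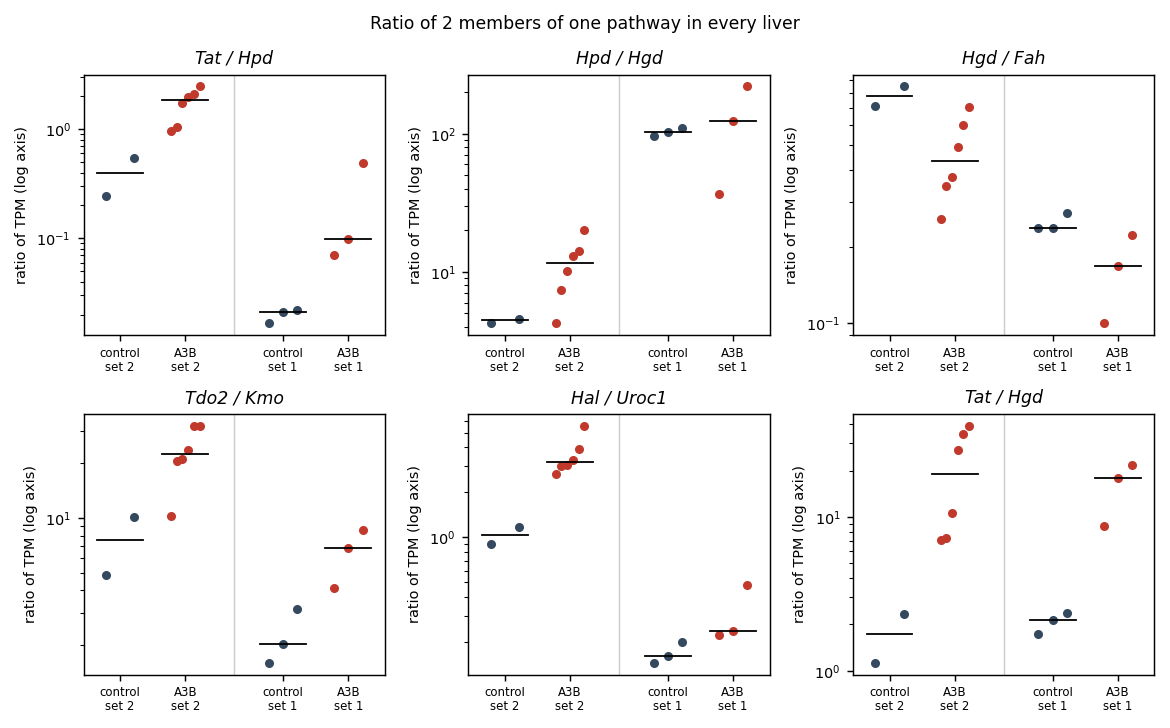
Ratio of TPM of 2 genes of one pathway (log axis) in every liver, as points sorted by value within a group, with the group median as a line. A3B and control livers do not overlap in either set except for Hpd over Hgd. In set 2 the groups almost touch for Tdo2 over Kmo (10.24 in an A3B liver, 10.20 in a control) and for Hgd over Fah (0.710 and 0.715).

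Other genes of amino acid metabolism were counted from 9 lists with 104 genes in all, which hold enzymes of breakdown and also of synthesis and side routes. Over both liver sets, of 100 tested, limma called 9 higher and 30 lower (among the 9 are Phgdh and Psat1 of serine synthesis, Pycr1 of proline synthesis, and Hdc and Hnmt of histamine metabolism), where 30.6% of all genes were called higher and 8.42% lower, with a median log2 fold change of -0.59 against 0.38 for all genes. After centring on the median gene it called 2 higher (Hdc and Sdsl) and 47 lower, against 13.9% and 18.2% of all genes. The 8 hepatocyte markers had a similar median over both sets, -0.56. Of these 0 were called higher and 2 lower, and 0 and 5 after centring. A fall of this size was thus not particular to the amino acid lists. In set 2 alone edgeR called 0 higher and 6 lower of 102 tested, against 1.26% and 2.41% of all genes. In set 1 limma called 2 higher and 1 lower of 100, against 6.07% and 1.86%, and after centring 2 higher and 6 lower, against 2.36% and 3.98%.

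Of the tryptophan and kynurenine list, 6 of 12 tested genes were lower and none higher over both sets (8 lower after centring). The largest fall was in Ido2, a second tryptophan-degrading dioxygenase, at 4.32 to 13.6 TPM in A3B livers against 47.8 and 74.7 in controls of set 2 (log2 fold change -2.49, SE 0.49, limma adjusted p = 0.00134). Qprt, which leads quinolinate towards NAD, fell by 1.09 (SE 0.31), Afmid, the formamidase right after Tdo2, by 1.87 (SE 0.60), and Haao, the oxygenase that makes the precursor of quinolinate, by 2.02 (SE 0.70), with adjusted p of 0.0121, 0.0225 and 0.0324. Tdo2 thus lay on the other side of 0 from the genes called around it.

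Of the phenylalanine and tyrosine list, 1 of 9 tested genes was higher and 5 lower. The gene that rose was Got1, the cytosolic aspartate aminotransferase, by 1.75 on the log2 scale (SE 0.52, adjusted p = 0.0156), but after centring it was not called. Pcbd1 and Pts, which recycle and make the biopterin cofactor of phenylalanine hydroxylase, fell by 1.29 (SE 0.25) and 0.98 (SE 0.27), with adjusted p of 0.00106 and 0.0101. Gstz1, the isomerase between Hgd and Fah, fell by 1.02 (SE 0.26, adjusted p = 0.00653). It was at 330 to 603 TPM in A3B livers and at 731 and 840 TPM in controls of set 2, with no overlap, and the same held in set 1.

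Of the histidine list, 2 of 7 were called, both higher. They are the enzymes that make and inactivate histamine and not those of breakdown, Hdc with a log2 fold change of 2.92 (SE 0.34, adjusted p = 3.84e-05) and Hnmt with 1.01 (SE 0.28, adjusted p = 0.0104), and after centring only Hdc was called. Hdc was at 11.1 to 40.9 TPM in A3B livers of set 2 against 3.57 and 4.34 in controls, and at 63.3 to 101 against 4.02 to 10.6 in set 1.

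Of the serine, glycine and threonine list, 3 of 20 were higher and 7 lower. Sdsl, the relative of Sds, rose by 1.65 on the log2 scale (SE 0.27, adjusted p = 0.000378), at 29.1 to 70.1 TPM against 11.5 and 12.2 in set 2 and 313 to 818 against 153 to 169 in set 1. The others with the smallest p were Srr, serine racemase (-1.51, SE 0.35, adjusted p = 0.00355), Glyctk, glycerate kinase (-1.57, SE 0.40, 0.00707), and Amt, of the glycine cleavage system (-1.10, SE 0.34, 0.0187).

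Of the methionine and cysteine list 0 of 12 were higher and 2 lower, of which Csad, which makes hypotaurine, fell by 3.34 on the log2 scale (SE 0.51, limma adjusted p = 0.000256) and Tst, a sulfurtransferase, fell by 0.92 (SE 0.32, adjusted p = 0.0321). Of the branched-chain list 1 of 23 was higher and 7 lower, among them Pccb and Pcca of propionyl-CoA carboxylase (-1.35, SE 0.29, and -0.93, SE 0.29, adjusted p = 0.00232 and 0.0184), Hibadh of the valine route (-1.44, SE 0.31, 0.00234) and Acad8, also of valine breakdown (-1.02, SE 0.27, 0.0074). Of the proline list 1 of 7 was higher, Pycr1 of proline synthesis (1.29, SE 0.48, adjusted p = 0.0442), and 2 lower, Aldh4a1 of proline breakdown (-1.82, SE 0.61, 0.0294) and Hoga1 of hydroxyproline breakdown (-0.58, SE 0.21, 0.0432). Of the lysine list 1 of 6 was higher, Phykpl (0.52, SE 0.17, adjusted p = 0.0234), and neither Pycr1 nor Phykpl was called after centring. Of 4 genes of alanine and transamination 1 was lower, Glud1, glutamate dehydrogenase (-0.71, SE 0.25, 0.0338).

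**Figure D4:**
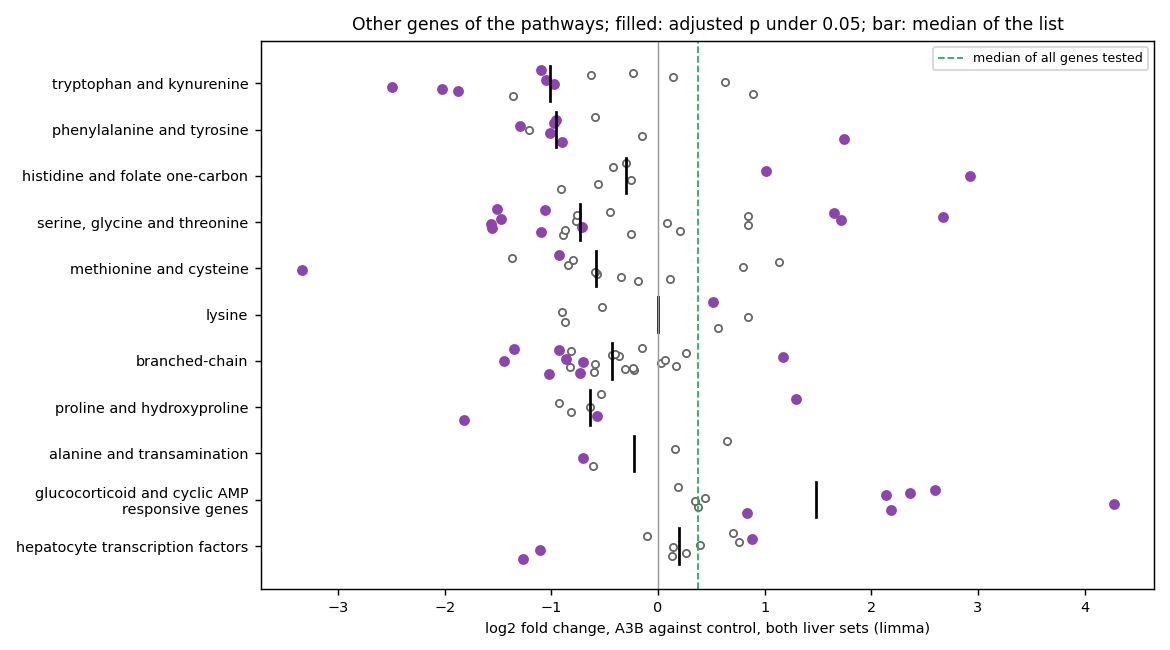
Log2 fold change, A3B against control over both liver sets (limma), of each gene of 9 amino acid lists and of 2 lists of regulators, with the median of a list as a bar and the median of all genes tested (0.38) as a dashed line. Filled points have an adjusted p under 0.05, and among the amino acid lists 30 of them lie below 0 and 9 above.

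Genes that respond to glucocorticoids or cyclic AMP in liver were counted because Tat, Tdo2 and Sds are known to. Of 10, 6 were higher and 0 lower over both sets, where 30.6% of all genes were called higher, and 5 were higher after centring, where 13.9% were. The median log2 fold change was 1.48, against 0.38 for all genes. Not called over both sets were Pck1 (0.44), G6pc (0.37), Nr3c1 (0.35) and Tsc22d3 (0.19). Within set 2 alone 2 were called higher, against 1.26% of all genes, and within set 1 alone 3, against 6.07%. A link of this list to the levels of Tat, Tdo2 and Sds was not tested. Igfbp1, an insulin-suppressed binding protein, was at 187 to 3256 TPM in A3B livers against 21.1 and 35.7 in controls of set 2 (both sets 4.27, SE 0.56, limma adjusted p = 0.000104). Sgk1, a kinase induced by glucocorticoids, rose by 2.60 (SE 0.42, adjusted p = 0.000393) and Ppargc1a, a coactivator of gluconeogenesis, by 2.37 (SE 0.51, 0.00244). Per1, a clock gene with a glucocorticoid response, rose by 2.13 (SE 0.47, 0.0028). The rise of Per1 was 0.74 in set 2 alone (edgeR adjusted p = 0.395) and 3.22 in set 1 alone (limma adjusted p = 0.0259). Of 10 hepatocyte transcription factors 1 was higher, Nr5a2 (0.88, SE 0.33, adjusted p = 0.0453), and 2 lower, Cebpa (-1.27, SE 0.42, 0.0263) and Foxa3 (-1.11, SE 0.38, 0.0314), and after centring only the latter pair was called.

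The summed pericentral markers separated A3B livers from controls in both sets, and the summed periportal markers did not. Of the 9 periportal genes 3 were higher and 1 lower without overlap in TPM in set 2, where 32.2% of all genes did not overlap. In set 1 1 was higher and 1 lower, against 38.9%. Sdsl was higher and Cyp2f2 lower without overlap in both sets. The summed pericentral list, genes of hepatocytes around the central vein, was 901 to 3210 TPM in A3B livers against 8238 and 8342 in controls of set 2, and 645 to 2656 against 5164 to 6339 in set 1. Of its 9 genes, 7 were called lower over both sets, where 8.42% of all genes were, and 9 after centring, where 18.2% were. Within set 2 alone 3 were called lower (Axin2, Cyp1a2 and Rgn), against 2.41% of all genes, and within set 1 alone 2 (Cyp1a2 and Rgn), against 1.86%. Over both sets Cyp1a2 had a log2 fold change of -5.71 (SE 0.67) and Rgn of -4.38 (SE 0.61) (limma adjusted p = 5.32e-05 and 0.000158). The summed periportal list, genes of hepatocytes around the portal vein, overlapped, at 5855 to 19550 against 7324 and 9515 TPM in set 2 and 1169 to 7086 against 2580 to 3751 in set 1, with 3 genes called higher and 1 lower of 8 over both sets (1 and 1 after centring). The neutrophil list was 5.50 to 120 TPM against 2.97 and 4.99 in set 2 and 11.9 to 117 against 9.51 to 21.9 in set 1. The macrophage list overlapped in set 2 (27.9 to 837 against 273 and 298 TPM). The part of zones or of other cells in the levels of the 9 genes was not tested.

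Each gene's nearest neighbour was the gene with the smallest root mean square distance of log2(TPM + 1) over 14 livers, after centring within a set, among 4865 others that averaged 10 TPM or more in each set. The nearest to Tdo2 was Retsat (0.273), to Kmo Acad11 (0.226), to Tat Mat1a (0.419), to Hpd Prodh2 (0.333), to Hgd Bphl (0.203), to Fah Isoc2a (0.174), to Hal Fam234b (0.309), to Uroc1 Akr1d1 (0.243) and to Sds Asl (0.505). Tat had Got1 as the next nearest (0.487). No gene of the 9 had another of them as its nearest, and the closest such pair by rank was Tat, which ranked 4 among the neighbours of Sds (0.630). The points share groups and libraries, so these distances describe these livers only.

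In set 2 the estimated counts also split over transcripts, and liver 48 stood apart by how they split, most clearly in Tdo2, Hal, Hgd and Hpd. Transcripts of one gene overlap, so the split is an estimate. For Tdo2 the coding transcript of 1616 bases held 39.2% to 51.9% of the gene's counts in the other 7 livers and 7.78% in liver 48, where a processed transcript of 612 bases held 36.1% against 8.66% to 13.9%. For Hal the transcript of 2360 bases held 38.3% to 51.1% in the others and 0.636% in liver 48, where one of 851 bases held 43.6% against 4.62% to 9.17%. For Hgd the main coding transcript held 89.3% to 96.0% in the others and 36.3% in liver 48. For Hpd a processed transcript of 511 bases held 13.7% in liver 48 against at most 0.0722% in the others.

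Because TPM is per length, counts on short transcripts raise the summed level of a gene. In liver 48 retained-intron transcripts held 3.53% of all counts, against 1.20% to 2.13% in the other livers of set 2. Liver 48 also had the lowest sums of set 2 for the macrophage list (27.9 TPM against 196 to 837 in the others), the endothelial list (19.6 against 123 to 175) and the stellate list (24.0 against 73.8 to 215). Their part in the levels was not tested. The share of the 1616-base transcript of Tdo2 was 47.6% to 51.9% in 5 A3B livers and 41.9% and 39.2% in controls 45 and 168. Without liver 48 edgeR called 0 of the 9 genes in set 2, where 6.59% of all genes were called and 4 of the 9 had an unadjusted p under 0.05. Without livers 48 and 49, an alternative chosen after seeing the data, it called Tat, Hal and Sds higher and Hgd lower, where 18.4% of all genes were called.

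**Figure D5:**
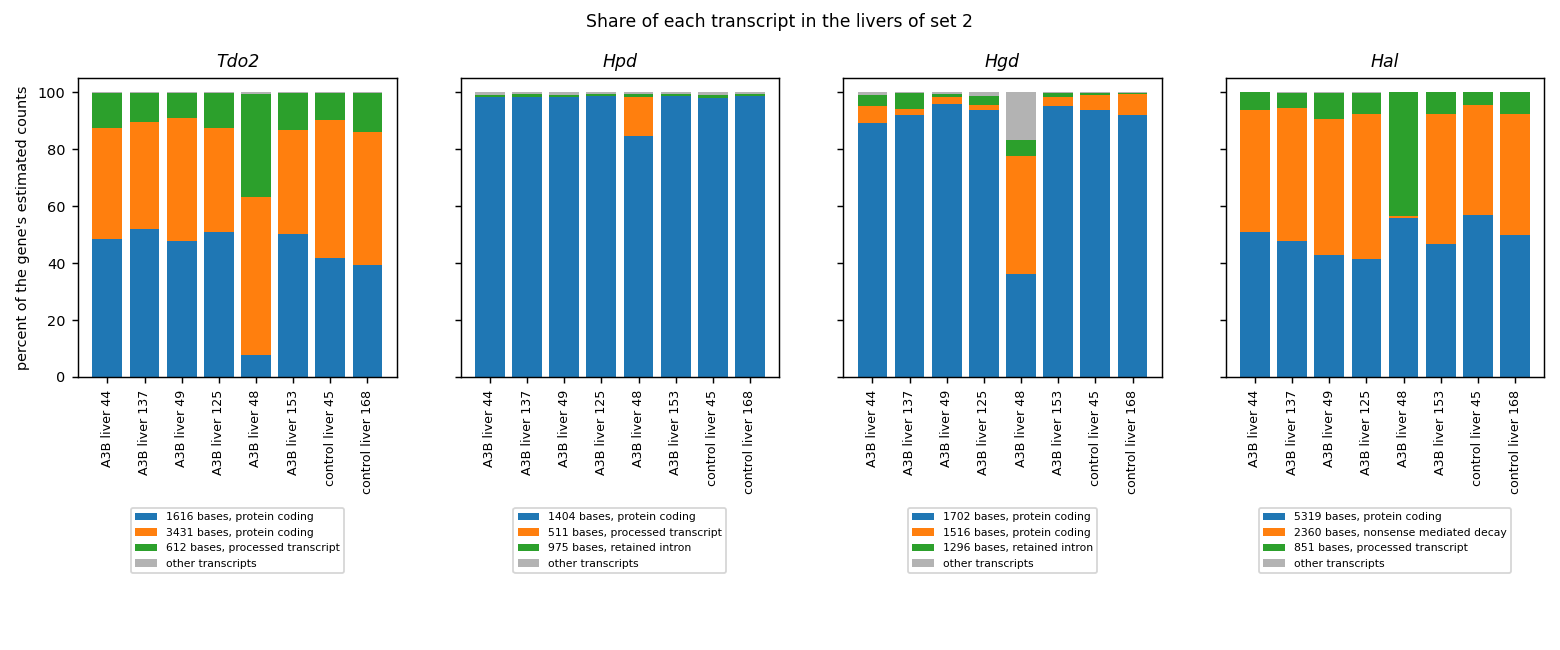
Percent of a gene's estimated counts on each transcript in the 8 livers of set 2, for Tdo2, Hpd, Hgd and Hal, with the length and type of the 3 most abundant transcripts. Liver 48 differs from the other 7 livers in all 4 genes, for example with 7.78% of Tdo2 counts on the 1616-base transcript against 39.2% to 51.9%.

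In most pancreas and lung samples the 9 genes were far below their liver levels, with exceptions. In control pancreases 45 and 168 all 9 were under 6 TPM. In A3B pancreas, where the labels of 4 of 8 samples give another genotype than their titles, Tat ranged from 2.26 to 46.7 TPM and Sds from 7.04 to 22.9 TPM, while the summed hepatocyte list ranged from 121 to 1058 TPM against 25.6 and 71.2 in controls. Fah did not follow that list, with its highest level (38.6 TPM) in A3B pancreas 125, where the hepatocyte sum was lowest. In every A3B pancreas 4 of the 9 genes were above both controls, where that held for 82% of the 13590 genes whose mean reached 1 TPM. Of the 9 genes 8 reached that mean there. In lung, Hpd was at 420 and 547 TPM in A3B lungs 70 and 74 and at 303 TPM in control lung 88, against 0.486 to 18.8 in the other 3. The same 3 lungs had the hepatocyte list at 707, 793 and 932 TPM and the others at 1.82 to 75.4, while Fah was at 23.4 to 39.4 TPM in all 6. In every A3B lung 1 of the 9 genes, Tat, was above all controls, against 23.3% of 13651 genes. The part of hepatocyte RNA in these levels was not tested, and no test was made in these tissues.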

How the data were processed

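The 28 samples were grouped by title, and mouse numbers name replicates. For set 2 the authors quantified reads with kallisto against mm10 transcripts and deposited estimated counts and TPM per transcript, without later normalization. For set 1 the deposited TPM per gene were computed by the authors from reads with duplicates removed. Of 119414 transcripts, 116640 were matched to GENCODE M21 and summed per gene, counts rounded. Set 2 was tested with edgeR 4.0.16 (filterByExpr, TMM, robust quasi-likelihood), set 1 and both sets with limma 3.58.1 on log2(TPM + 1), pseudocount 1, for genes whose mean reached 1 TPM, with variances moderated by trend and robustly. Benjamini-Hochberg adjustment ran over all genes, threshold 0.05. DESeq2 1.42.0 (the study's tool), other scalings, filters, pseudocounts and leaving out each liver were alternatives. The edgeR fit of set 2, at less spread between livers than was measured, and the limma fit of set 1 were tried on simulated data. The other fits were not. The members and lists were chosen with earlier results of these data known. All 9 members are named, and of each list up to 4 genes with an adjusted p under 0.05 in set 2 or over both sets, smallest p first, otherwise the 2 with the smallest p. Sequences are from RefSeq, GRCm38.p6. In R 4.3.3 and Python 3.11.15.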

Additional observations from a re-analysis of the deposited data

Results flagged for a closer look

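Dixon's test for a sample far from the others was run on the 6 A3B livers and 6 A3B pancreases of set 2, in 29 groups of values, of which chance flags about 1 in 20. It flagged 6. In 5 the sample was A3B liver 48, with 7.78% of Tdo2 counts, 84.8% of Hpd counts, 36.3% of Hgd counts and 83.7% of Sds counts on the transcript that is most abundant over the 8 livers, and 3.53% of all its counts on retained-intron transcripts. The sixth was Tat at 46.7 TPM in A3B pancreas 49, above the other A3B pancreases.

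In tissues outside the liver comparison some genes were above every control in every A3B sample. In pancreas the lowest A3B value was 2.26 TPM for Tat, 19.4 for Fah, 0.796 for Hal and 7.04 for Sds, each above both controls. In lung the lowest A3B value of Tat was 9.11 TPM, above all 3 controls. The same held for 82% of all 13590 genes in pancreas and 23.3% of 13651 in lung. In pancreas the summed stellate list was 938 to 1443 TPM in A3B samples against 40.1 and 184 in controls, and the cholangiocyte list 1279 to 3031 against 55.4 and 106. These differences were not tested.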

How the results depend on the processing

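No paired analysis was possible because the A3B and control livers come from different mice and share no replicate numbers. In set 2, DESeq2 called 2 members higher and 1 lower where edgeR called 0 of each, and leaving out A3B livers 48 and 49 together gave 3 higher and 1 lower. Leaving out 1 liver at a time gave 0 to 1 higher and 0 to 1 lower in set 2 (1 higher and 1 lower without liver 49, 1 lower without liver 153), 0 to 2 higher (2 without liver 28) and 0 to 1 lower (1 without liver 70) in set 1, and 0 to 3 higher over both sets (0 without control 168), with 1 lower each time. Over all genes of set 2 edgeR called 636, against 2351 with DESeq2, 1120 with total-count scaling, 1953 with 16 samples in one fit, 96 of 59515 single transcripts, 3082 without livers 48 and 49, and 73 (without control 168) to 1599 (without liver 49) with 1 liver left out. In set 1 limma called 913 genes, against 54 with no filter on low values and 1 (without control 91) to 1562 (without control 11) with 1 liver left out. Over both sets 1 member was called higher with no filter on low values (Tat) and 0 after median-centring. Hgd was called lower over both sets under all 18 alternatives (adjusted p 0.00307 to 0.0345), Tat higher under 16 (0.00412 to 0.0974) and Tdo2 under 9 (0.00293 to 0.183). The direction of Hpd in set 2 turned under total-count scaling (log2 fold change 0.29), limma on TPM (0.12), without livers 48 and 49 (0.17) and with 1 liver left out (-0.281 to 0.0411), and that of Kmo under total-count scaling (0.0574). In set 1 Hal ranged from -1.11 to 0.30 and Sds from -0.0367 to 2.05 with 1 liver left out. The difference between sets went to -0.188 for Hgd, -0.0728 for Fah and -0.0796 for Uroc1 without liver 28 (highest 0.685, 1.03 and 1.25), an alternative chosen after seeing the data. The cause of these shifts was not tested. Set 2 has 2 controls, at least 65161064 counts per liver and a biological coefficient of variation of 0.57, and the depth of set 1 is unknown.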

Other observations

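The 3 lungs with hepatocyte transcripts differed in the genes followed here. Control lung 88 had Alb at 245 TPM and Hpd at 303 TPM, with Tat at 6.93, Sds at 4.59, Tdo2 at 2.36 and Hal at 3.43 TPM. A3B lungs 70 and 74 had Alb at 190 and 216 TPM and Hpd at 420 and 547 TPM, with Tat at 54.1 and 46.6, Sds at 47.3 and 37.0, Tdo2 at 11.3 and 12.8 and Hal at 10.7 and 12.1 TPM. Uroc1 was at 24.5 TPM in lung 88 and at 36.3 and 41.2 TPM in lungs 70 and 74. Hgd was at 2.10 TPM in lung 88 and at 1.43 and 2.15 TPM in the others. These are values of 3 samples, seen after the livers, and were not tested.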
